A study of Mus musculus with 2 samples.

Results

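On mouse chromosome 6, the genes Apobec1, Gdf3, Dppa3, Nanog and Slc2a3 lie side by side at chr6:122527810-122751658 (mm9). These 5 neighbours, of 37310 genes in the GENCODE vM1 annotation, were taken as a single locus. Every listed ATAC-seq peak with its middle from 50 kb before Apobec1 to 50 kb after Slc2a3 (chr6:122477810-122801658, 323.8 kb) was placed by its distance to each transcription start site (TSS). The window held 41 of the 71914 WT peaks and 41 of the 61640 Uhrf1 KO peaks. In ATAC-seq, the Tn5 transposase inserts adapters where DNA is accessible, and a peak is a position listed by the authors as open. Libraries were made from mouse ESCs of the E14 line, either WT or Uhrf1 KO and both undifferentiated, with 50000 cells lysed for each library. Both lines came from another group and were grown with serum and leukemia inhibitory factor on plates coated with gelatin or mouse embryonic fibroblasts (MEFs). Each genotype has 1 library and Uhrf1 KO is 1 line, so there is no spread between replicates and each value compares a pair of libraries, not the genotypes. The Uhrf1 promoter had 2 WT and 3 KO peaks within 2 kb of its TSS, and peak positions do not check whether a gene product is lost.

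Nanog is a homeodomain transcription factor of the pluripotency network, and its transcription in ESCs depends on an Oct4-Sox2 element in its promoter and on distal enhancers. Dppa3, also called Stella, is a maternal factor that protects DNA methylation in the zygote and is known to bind Uhrf1 and keep it from chromatin, whereas Uhrf1 itself brings the methyltransferase Dnmt1 to newly replicated DNA. Gdf3 is a ligand of the TGF-β family, Apobec1 is the cytidine deaminase that edits ApoB mRNA, and Slc2a3 is the neuronal and early embryonic glucose transporter GLUT3.

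Both libraries listed the same number of peaks across the locus, and most of them lay at the same places. The 41 peaks of each library (95% exact Poisson interval 29.4 to 55.6) came to 12.7 peaks per 100 kb. All of chromosome 6 held 2.47 WT and 2.26 KO peaks per 100 kb, and the genome 2.71 and 2.32. The locus was therefore more densely covered than its chromosome in each library. In the 100 kb centred on the TSS, Pou5f1 had 15 WT and 10 KO peaks and Sox2 6 and 5. A cover denser than that of the genome is thus not particular to this locus. The KO to WT ratio of peak numbers was 1.00 at the locus (95% exact conditional binomial interval 0.633 to 1.58), against 0.916 on chromosome 6 and 0.857 over the genome, and the interval at the locus includes both of these values. All intervals hold only the error of counting, and peaks that lie close together are not independent of each other.

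A peak was counted as shared when the other library had a peak within 100 bp. Of the 41 WT peaks at the locus, 5 had no KO partner (12.2%, 95% exact binomial interval 4.08% to 26.2%), against 32.1% of all WT peaks. Of the 41 KO peaks, 7 had no WT partner (17.1%, interval 7.15% to 32.1%), against 24.6% of all KO peaks. The WT share lay below the share over all peaks by more than its counting interval, and the KO share did not. With partners that share at least 50% of both peaks, the WT share was 36.6% (interval 22.1% to 53.1%) against 50.2% of all WT peaks, which the interval then includes. The central 31 bp of each of the 82 peaks occurred at 1 place in the genome, so none of the peak centres lies in a duplicated copy of that length.

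**Figure D1:**
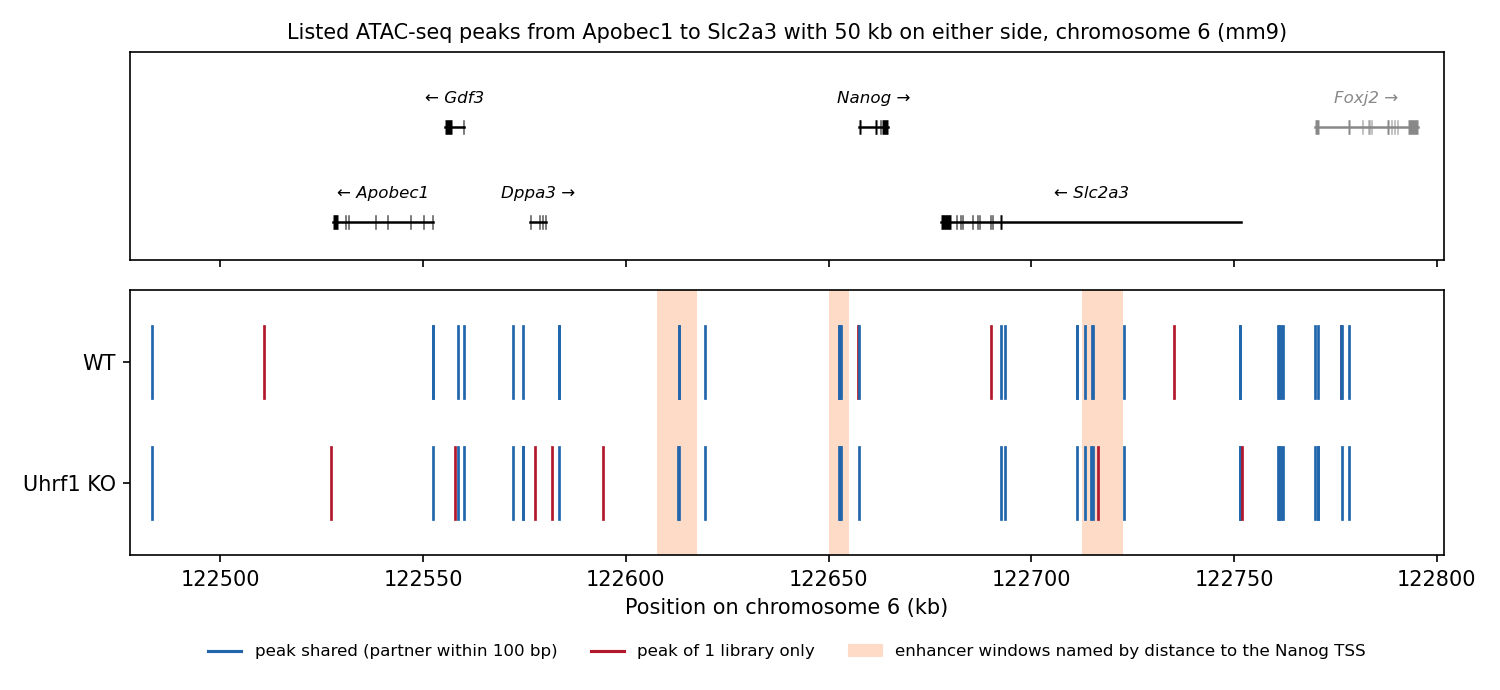
Gene models (top, members in black, Foxj2 in grey, other genes not drawn, arrows for the direction of transcription) and listed peaks of WT and Uhrf1 KO (bottom, 1 line per peak) against position on chromosome 6 in kb (mm9). Blue lines are shared peaks, red lines are the 5 WT-only and 7 KO-only peaks, and shaded bands are the windows 5 kb and 45 kb upstream and 60 kb downstream of the Nanog TSS.

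The names of the peaks carry a running number for each chromosome, and what this number orders is not given in the sources used here. With chromosome 6 peaks sorted by this number, position increased in 109 successive runs in WT and in 92 in Uhrf1 KO. The run with the highest numbers held 379 WT and 420 KO peaks, and the median run held 7 and 7.5. The number thus orders peaks by something other than position. It was used only as a rank, as the percentage of peaks of the same library and chromosome with the same or a lower number, and a smaller percentage is called nearer the top. Within a run the number follows position alone, so ranks of peaks in the same run are tied.

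Nanog (chr6:122657507-122664651, plus strand) had 2 WT peaks and 1 KO peak within 2 kb of its TSS at 122657586. The promoter peak shared by both libraries lay 75 bp upstream of the TSS in WT (chr6:122657461-122657561) and 60 bp upstream in Uhrf1 KO (chr6:122657476-122657576), over the TSS of another annotated Nanog transcript. It ranked at 53.0% in WT and 45.1% in Uhrf1 KO. The other WT peak, chr6:122657134-122657234, lay 402 bp upstream, had no KO partner and ranked at 87.6%. Beyond the promoter peak, no peak of either library lay in the Nanog gene body or in the 13.2 kb between Nanog and Slc2a3.

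Distal elements of Nanog are known by their distance to its TSS, as enhancers about 5 kb and 45 kb upstream and 60 kb downstream, and all 3 windows held peaks in both libraries. The window 2.5 to 7.5 kb upstream held 4 WT peaks over 608 bp (chr6:122652502-122653109) and 4 KO peaks over 451 bp (chr6:122652619-122653069), each with a partner. Within it, the pair 4.92 kb upstream ranked at 23.7% in WT and 4.05% in Uhrf1 KO. The pair 4.74 kb upstream ranked at 37.9% and 17.1%, and the pair 4.55 kb upstream went the other way, at 49.1% and 86.1%. The remaining WT peak, the first of the element, ranked at 62.3%, and the remaining KO peak, starting at 122652731, at 15.1%. The WT peaks of this intergenic element thus ranked between 23.7% and 62.3%, and its KO peaks between 4.05% and 86.1%.

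The window 40 to 50 kb upstream held 2 WT and 2 KO peaks, all shared and intergenic. The pair there (chr6:122613037-122613137 in WT and chr6:122613073-122613173 in Uhrf1 KO) ranked at 22.6% in WT and 30.6% in Uhrf1 KO, the reverse of the pair 4.92 kb upstream. The window 55 to 65 kb downstream, within an intron of the longest Slc2a3 transcript, held 3 WT and 4 KO peaks, of which 1 KO peak had no partner. Its pair 57.7 kb from the Nanog TSS (chr6:122715231-122715331 in WT, chr6:122715258-122715358 in Uhrf1 KO) ranked at 49.2% in WT and 21.3% in Uhrf1 KO. The pair starting at 122714844 in WT and 122714769 in Uhrf1 KO ranked at 38.0% and 28.0%, and the pair starting at 122713219 and 122713122 went the other way, at 62.3% and 76.4%.

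Dppa3 (chr6:122576428-122580290, plus strand) had 1 WT peak and 3 KO peaks within 2 kb of its TSS, and 0 within 1 kb in each library. The nearest WT peak, chr6:122574600-122574700, lay 1.78 kb upstream, with KO peaks at chr6:122574604-122574704 and chr6:122574662-122574762. This pair ranked at 45.8% in WT and 45.1% in Uhrf1 KO, and the runs of both peaks overlap in rank, so the libraries cannot be told apart at this pair. A copy annotated as Y_RNA lies between Gdf3 and Dppa3 at chr6:122573565-122573676, and the same upstream peaks are within 2 kb of it. A KO-only peak, chr6:122577634-122577734, lay in an intron of Dppa3 1.26 kb downstream of the TSS and ranked at 67.6%. Further KO-only peaks lay 5.24 kb downstream (chr6:122581614-122581714, rank 35.6%) and 18.0 kb downstream (chr6:122594388-122594488, rank 76.4%), both intergenic. Dppa3 was the nearest member for 6 WT peaks, all shared, and for 9 KO peaks, of which 3 were KO-only, against 32.1% of all WT and 24.6% of all KO peaks without a partner.

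Gdf3 (chr6:122555421-122560105, minus strand) had 2 peaks within 2 kb of its TSS in each library. The nearest, in the coding exon at the start of the gene, lay 100 bp downstream of the TSS in WT (chr6:122559955-122560055) and 97 bp downstream in Uhrf1 KO (chr6:122559958-122560058). It ranked at 49.1% in WT and 32.9% in Uhrf1 KO. The intronic pair 1.49 kb downstream ranked at 73.6% and 32.9%. A KO-only peak in the same intron, chr6:122557908-122558008, lay 2.15 kb from the TSS and ranked at 28.0%, nearest to the top of all 7 KO-only peaks of the locus. The 3 KO peaks nearest to Gdf3 thus ranked at 32.9% or nearer the top, where the 2 WT peaks ranked at 49.1% and 73.6%.

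Apobec1 (chr6:122527810-122552462, minus strand) had 2 WT peaks and 1 KO peak within 2 kb of its TSS. The WT peak 12 bp upstream (chr6:122552351-122552451) ranked at 52.9%, and its KO partner 42 bp upstream (chr6:122552381-122552481) at 86.1%. The other WT peak, chr6:122552414-122552514, ranked at 35.3%, and it counts as shared through the same KO peak. At Apobec1, the pair nearest to the TSS lay farther from the top in Uhrf1 KO than in WT, where that of Nanog, Gdf3 and Slc2a3 lay nearer. By the number of runs from the bottom of each list, the Nanog pair was equal (8 in each library), and Apobec1 (8 in WT and 2 in Uhrf1 KO), Gdf3 (9 and 12) and Slc2a3 (17 and 32) kept their direction. A KO-only peak, chr6:122527190-122527290, lay beyond the 3′ end of the gene and ranked at 86%.

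Slc2a3 (chr6:122677827-122751658, minus strand) had 2 peaks within 2 kb of the TSS of its principal transcript at 122692763 in each library. The nearest lay 131 bp downstream in WT (chr6:122692582-122692682) and 138 bp downstream in Uhrf1 KO (chr6:122692575-122692675). It ranked at 29.3% in WT and 10.0% in Uhrf1 KO, nearer the top in each library than the nearest promoter peak of the other members. A second promoter pair 0.772 kb upstream ranked at 53.0% and 67.7%. With the TSSs of all its coding transcripts counted, Slc2a3 had 4 WT and 5 KO promoter peaks, since the far start at 122751658 had 2 shared pairs and a KO-only peak (chr6:122751893-122751993, rank 45.2%). Inside the gene, 18.5 kb upstream of the principal TSS, lay the pair with the widest difference in rank at the locus (chr6:122711172-122711272 in WT, chr6:122711168-122711268 in Uhrf1 KO), at 87.6% in WT and 18.1% in Uhrf1 KO. A further intronic pair 30.1 kb upstream ranked at 67.6% and 24.1%.

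In order of the rank of the peak nearest to each TSS, the WT library had Slc2a3 (29.3%), Dppa3 (45.8%), Gdf3 (49.1%), and Apobec1 (52.9%) and Nanog (53.0%) tied in the same run. In the KO library the order was Slc2a3 (10.0%), Gdf3 (32.9%), Nanog (45.1%), Dppa3 (67.6%, at the KO-only intronic peak) and Apobec1 (86.1%). Slc2a3 came at the top in both, and with 1 library each no spread is known for the neighbours in these orders. The Dppa3 values belong to different peaks. The KO partner of its WT peak ranked at 45.1%, tied with Nanog in the same run, so the later place of Dppa3 in the KO order is not a change at that pair. All 5 members had a peak within 2 kb of the TSS in each library, where 60.1% of 22372 protein-coding genes did in WT and 55.1% in Uhrf1 KO.

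The peak nearest the top in each library was not at a member but in the intergenic stretch between the far Slc2a3 start and Foxj2, a forkhead transcription factor gene. There, 4 WT peaks (chr6:122760819-122762023) and 4 KO peaks (chr6:122760852-122762018) formed 4 pairs, 103 kb from the Nanog TSS and 7.91 kb before that of Foxj2. The pair starting at 122761053 in WT and 122761037 in Uhrf1 KO ranked at 2.27% and 0.858%, and the pair starting at 122760819 and 122760852 at 18.1% and 2.40%. The other pairs there ranked at 11.1% and 9.05% and at 49.2% and 49.7%. At the Foxj2 promoter, with 83.0% GC in WT, the pair starting at 122769901 and 122769906 ranked at 31.2% in WT and 54.4% in Uhrf1 KO. The lincRNA gene Gm4485, which overlaps the start of Foxj2, had 2 WT and 3 KO peaks within 2 kb of a TSS, as Foxj2 did. On the other side of the locus, the peak of Mfap5 lay before the window in both libraries.

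Peaks without a partner were counted by stretch. From 1 kb before the Apobec1 gene to 20 kb after Dppa3, 0 of 8 WT peaks lacked a partner, as did 5 of 12 KO peaks, against 32.1% of all WT and 24.6% of all KO peaks. From 1 kb before Nanog to the end of the window, it was 4 of 24 in WT and 2 of 21 in Uhrf1 KO, with both kinds interleaved. Outside both stretches lay 1 further WT-only peak. These borders were drawn after the positions were seen, so they set the difference between the stretches. The WT-only peaks had a median rank of 79.8% and the KO-only peaks of 67.6%, against 43.0% and 31.7% for shared peaks of the locus. Over all peaks the medians were 73.9% for WT-only and 74.4% for KO-only peaks, against 35.8% and 40.1% for shared peaks, so the locus was like the whole lists in this.

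Reciprocal nearest peaks formed 30 pairs at the locus, with a median offset of 16.0 bp between their starts. Of these pairs, 21 lay nearer the top in Uhrf1 KO (70.0%, 95% exact binomial interval 50.6% to 85.3%) and 9 nearer the top in WT. With the middle rank of its run given to each peak, it was again 21 pairs, and for 20 pairs toward Uhrf1 KO and 7 toward WT the ranks of both runs did not overlap. Counted by the number of runs from the bottom of each list, which is not scaled to the 109 and 92 runs of the libraries, 13 pairs were higher in Uhrf1 KO (43.3%), 15 in WT and 2 equal, against 30.6% higher in Uhrf1 KO on chromosome 6. The number of pairs toward Uhrf1 KO thus depends on how the libraries are scaled. Pairs that lie close together are not independent, and this measure was chosen after the data were seen. The interval of 50.6% to 85.3% holds only the error of counting and is not a test. By rank, on chromosome 6, 44.9% of 2113 pairs lay nearer the top in Uhrf1 KO, and over the genome 42.3% of 39747 pairs. A difference of at least 10 points was found for 11 pairs of the locus toward Uhrf1 KO (36.7%), against 23.4% of all pairs, and for 6 toward WT (20%), against 34.4% of all pairs. Between the borders of the 5 genes, 15 of 21 pairs lay nearer the top in Uhrf1 KO, 10 of these by at least 10 points, and 4 pairs lay nearer the top in WT by at least 10 points. In the flanks it was 6 of 9 pairs, 1 by at least 10 points, and 2 toward WT by at least 10 points. Differences of this size toward Uhrf1 KO within the genes lay around Gdf3, the element 5 kb upstream of Nanog and Slc2a3, and those toward WT at the Apobec1 promoter, the same Nanog element and Slc2a3.

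**Figure D2:**
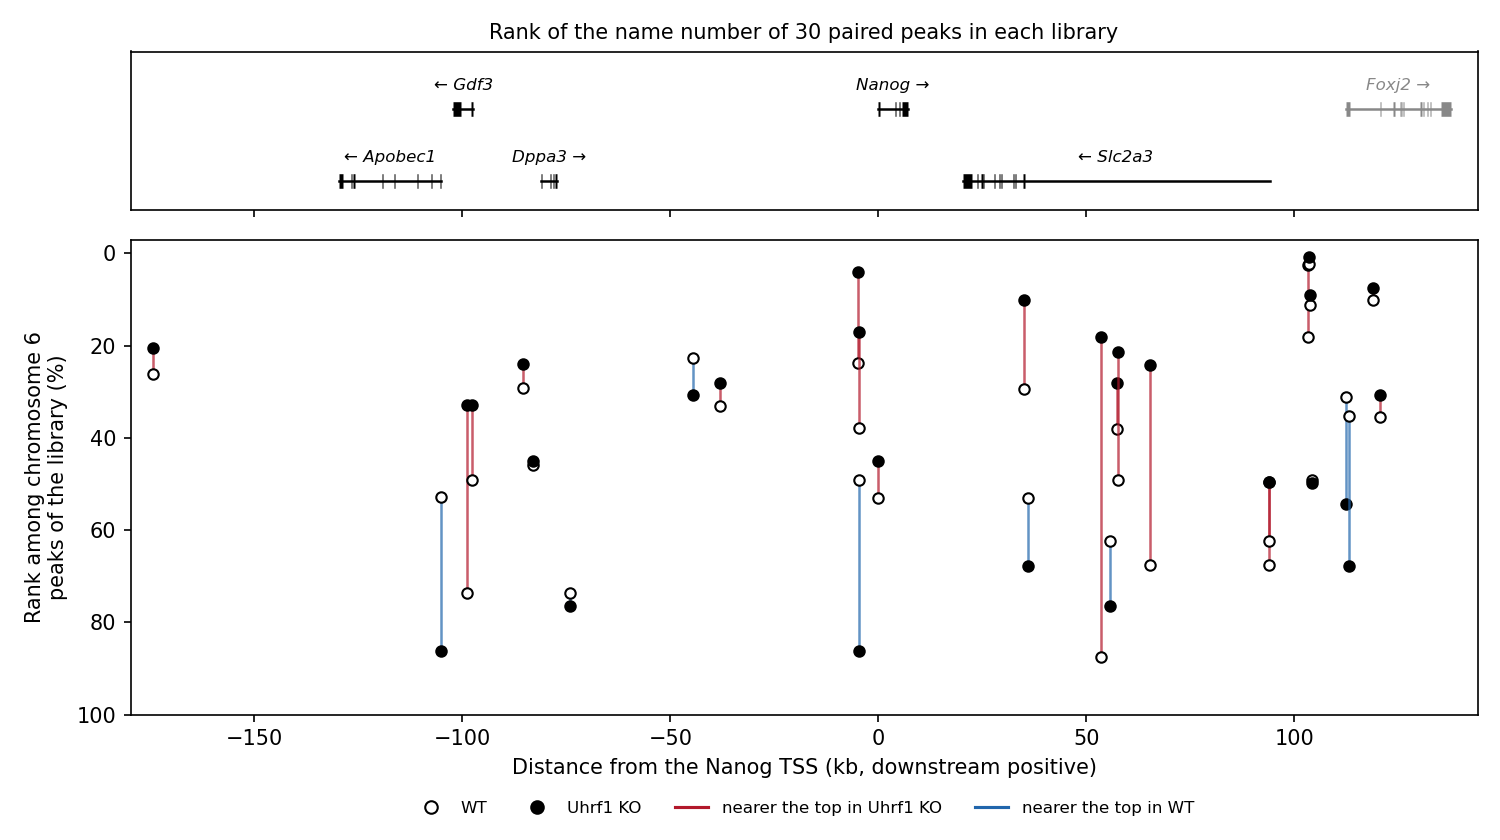
Rank in percent of the 30 paired peaks in WT (open circles) and Uhrf1 KO (filled circles), with the top of the list at the top of the axis, against distance from the Nanog TSS in kb, below the gene models. Red lines join the 21 pairs nearer the top in Uhrf1 KO and blue lines the 9 pairs nearer the top in WT, and the longest line is the pair in the Slc2a3 gene at 87.6% and 18.1%.

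GC content moved with these ranks on chromosome 6. Among chromosome 6 pairs with 45% to 50% GC, 70.6% lay nearer the top in Uhrf1 KO, and 58.9% did with 50% to 55%, 48.1% with 55% to 60% and 27.5% with at least 60%. Pairs between the borders of the 5 genes had a median GC content of 54.5%, against 59.5% on chromosome 6. In the same classes, 3 of 3, 6 of 8, 4 of 8 and 2 of 2 of these pairs lay nearer the top in Uhrf1 KO. Position relative to TSSs moved with rank as well, since 32.1% of chromosome 6 pairs within 2 kb of a TSS and 57.0% of those beyond it lay nearer the top in Uhrf1 KO. Between the borders of the 5 genes, it was 7 of 9 pairs near a TSS and 8 of 12 beyond. The part of GC content in the ranks at the locus was not tested.

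Over the central 200 bp, locus peaks had a median GC content of 54.5% in WT and 55% in Uhrf1 KO, against 59.5% and 56.5% for all peaks. They held a median of 6 and 5 CpG dinucleotides, against 9 and 6. The 7 KO-only peaks of the locus had a median of 5 CpGs, against 2 for all KO-only peaks, and a median GC content of 50.5%, against 49.5%. The 5 WT-only peaks had a median of 5 CpGs, against 7 for all WT-only peaks, and a median GC content of 47.5%, against 58.0%. In Dppa3 and around it, the KO-only peaks ranged from 48.5% GC, 5.24 kb downstream of the TSS, to 59.5%, 18.0 kb downstream.

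Motifs were searched on both strands of the central 200 bp. The letters were ATGCAAAT for the octamer of Oct4, CATTGT for Sox proteins, CATTGT followed by any base and ATGC for the Oct4-Sox2 composite, AAGGTCA for Esrrb and GGGTGTGG for Klf factors, and the core of the CTCF motif was searched too. A composite match always holds a Sox match. The composite was found in 1 WT and 1 KO peak of the locus, the shared Nanog promoter peaks, and in 57 WT (0.0793%) and 43 KO peaks (0.0698%) of the whole lists. The match starts 151 bp before the Nanog TSS, outside the peaks as listed and within the central 200 bp of both peaks. The octamer occurred only upstream of Dppa3, in 1 WT peak and 2 overlapping KO peaks that hold the same pair of matches, 1773 and 1729 bp before the TSS. Over all peaks, it was found in 1.58% in WT and 1.94% in Uhrf1 KO. A Sox match lay in 2 WT and 3 KO peaks of the locus, against 6.92% and 8.63% of all peaks. Esrrb letters were found in 1 WT and 0 KO peaks (2.68% and 3.06% of all peaks), Klf letters in 0 WT and 1 KO peak (3.44% and 3.51%), and the CTCF core in 2 WT and 0 KO peaks (3.42% and 2.57%). The sequences below are given because they hold the pluripotency motifs of the members' shared promoter peaks, and capitals mark the composite before Nanog (on the minus strand) and the octamers before Dppa3 (written on the plus strand as ATTTGCAT). All sequence is the mm9 plus strand.
Nanog upstream of the gene, chr6:122657411-122657506: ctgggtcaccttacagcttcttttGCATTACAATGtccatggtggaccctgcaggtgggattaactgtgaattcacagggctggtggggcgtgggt
Dppa3 upstream peaks, chr6:122574600-122574762: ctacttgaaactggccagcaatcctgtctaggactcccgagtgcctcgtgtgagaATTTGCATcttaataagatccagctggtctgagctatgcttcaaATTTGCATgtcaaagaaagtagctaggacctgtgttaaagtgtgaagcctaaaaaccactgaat

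Distal Nanog elements are shown next, as the KO peak nearest the middle of the window 5 kb upstream (intergenic) and the WT peak nearest the middle of the window 60 kb downstream (Slc2a3 intron). Capitals mark the Sox letters, which occur in only the downstream peak of these 2.
Nanog 5 kb upstream, KO peak, chr6:122652619-122652719: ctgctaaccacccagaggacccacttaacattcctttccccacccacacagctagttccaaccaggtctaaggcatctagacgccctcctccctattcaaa
Nanog 60 kb downstream, WT peak, chr6:122715231-122715331: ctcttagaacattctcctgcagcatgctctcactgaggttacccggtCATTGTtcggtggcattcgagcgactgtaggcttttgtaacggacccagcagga

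Peaks of 1 library only are represented by the KO-only peaks in the Gdf3 intron, in the Dppa3 intron and downstream of Dppa3, and by a WT-only peak in an Slc2a3 intron 2.61 kb from the principal TSS, which ranked at 42.8%. Capitals mark the Klf letters in the Gdf3 peak and the Sox letters downstream of Dppa3, both on the minus strand, and the CTCF core in the Slc2a3 peak.
Gdf3 intron, KO-only, chr6:122557908-122558008: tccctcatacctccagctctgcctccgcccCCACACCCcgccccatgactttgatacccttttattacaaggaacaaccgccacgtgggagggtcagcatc
Dppa3 intron, KO-only, chr6:122577634-122577734: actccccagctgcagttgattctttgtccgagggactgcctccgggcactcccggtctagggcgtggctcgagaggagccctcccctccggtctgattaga
Dppa3 downstream, KO-only, chr6:122581614-122581714: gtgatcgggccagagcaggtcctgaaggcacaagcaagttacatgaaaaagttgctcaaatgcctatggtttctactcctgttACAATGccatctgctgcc
Slc2a3 intron, WT-only, chr6:122690104-122690204: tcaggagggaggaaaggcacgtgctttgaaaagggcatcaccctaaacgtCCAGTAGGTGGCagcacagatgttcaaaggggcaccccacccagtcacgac

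Set beside other pluripotency genes, Dppa3 and Gdf3 had the largest surplus of KO over WT peaks by difference in number. Nanog had fewer KO than WT peaks. Within 50 kb of the TSS, Dppa3 had 11 WT and 15 KO peaks and Gdf3 9 and 12. These windows overlap and hold the same 5 KO-only peaks, so the surpluses at Dppa3 and Gdf3 are not separate observations. Nanog had 12 WT and 10 KO peaks. Of 29 genes found from a list of 30, 8 had more KO than WT peaks, 19 had fewer and 2 had equal numbers. The whole KO list is shorter as well, with a KO to WT ratio of 0.857 over the genome and 0.916 on chromosome 6. Fewer KO peaks, at Nanog as at most list genes, are thus not read as particular to these genes. Next after Dppa3 and Gdf3 came the growth factor gene Fgf4, with 5 WT and 7 KO peaks, and Dppa2, with 4 and 6. By the ratio of KO to WT peaks, Dppa2 and Fgf4 came before Dppa3 and Gdf3. The lowest differences were at the corepressor gene Trim28 (25 WT and 17 KO peaks), the Nodal inhibitor gene Lefty1 (18 and 11) and the RNA-binding protein gene Lin28a (10 and 4). Pou5f1, which encodes Oct4, had 15 WT and 10 KO peaks, and Sox2 had 6 and 5.

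Around the 26 list genes outside the locus, 50 of 140 pairs lay nearer the top in Uhrf1 KO (35.7%, median GC content 57.5%). It was 42.3% over the genome, and 70.0% at the locus with a median GC content of 55.5%. In those windows 39.1% of 276 WT peaks had no KO partner and 24.7% of 223 KO peaks no WT partner, against 12.2% and 17.1% at the locus. A peak near several list genes is counted for each. Of the 9 ESC marker genes found, 8 had a WT and 9 a KO promoter peak, and Nanog was among both. Of the 29 pluripotency genes, 25 had a WT and 23 a KO promoter peak, where 60.1% of all coding genes did in WT and 55.1% in Uhrf1 KO. Of 12 fibroblast genes, which were counted because the cells may have grown on MEFs, 8 had a WT and 6 a KO promoter peak, with a WT peak only at Dcn and Pdgfrb. These counts are near the same shares of all coding genes. Whether MEFs added to the peaks of the locus was not tested.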

How the data were processed

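The data were the authors' deposited peak lists of 1 WT and 1 Uhrf1 KO ATAC-seq library. The deposited score is 1 for every peak and was not used. The submitters' processing notes name mm9, Bowtie2 2.1.0 and HOMER 4.9.1, without roles. The study's methods give mapping with Bowtie2 and a limit to fragments below nucleosome size. The peak caller and threshold are not given in the sources used here, and read numbers per peak are unknown, so DNA without a listed peak may still be open. All peaks but 1 have the same width.

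Peaks were compared in Python 3.11.15 with numpy 2.4.6, pandas 2.3.3 and scipy 1.17.1, and figures drawn with matplotlib 3.10.9. The TSS was that of the coding transcript with the longest coding sequence (GENCODE vM1), and sequence came from NCBIM37, the same build. No test between genotypes was made.

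The members and lists were chosen with earlier results of these data known. Named genes were taken from the 5 members, other genes of the window with a peak within 2 kb of a TSS, the 3 lowest and 3 highest pluripotency genes by KO minus WT peaks (4 with a tie), Pou5f1, Sox2, and fibroblast genes with a promoter peak in 1 library. Sequences came from the promoter peak nearest each TSS, the peak nearest the middle of each Nanog window and the 3 WT-only and 3 KO-only peaks with the lowest name numbers, without untranslated exons, and a part of them is printed. The stretches with the composite and the octamers, the ranks of pairs and the other gene-by-gene ranks were chosen after the data were seen. Tfcp2l1 has no entry under this name in the annotation.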

Additional observations from a re-analysis of the deposited data

How the results depend on the processing

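Of 105 alternative values, 86 stayed the same, 18 moved and 1 reversed. The same means within the counting interval for shares and the ratio, between quartiles for GC and CpG, within 1.5 times for counts and by at most 1 for KO minus WT peak numbers. The peak number at the locus moved in 1 of 10 settings, to 25 in WT with the lower 50% of name numbers, which removes peaks by construction. The KO to WT ratio lay between 0.926 and 1.12. When partners had to share at least 50% of both peaks, 36.6% of WT and 39.0% of KO locus peaks had none, against 50.2% and 42.4% of all peaks, and neither share then differs from all peaks by more than its counting interval. A stricter rule can only remove partners. Within 1 kb of the TSS, Dppa3 had 0 peaks in WT and 0 in Uhrf1 KO, and Gdf3 had 1 in each. Within 5 kb, Nanog had 5 peaks in each library, which takes in its upstream element, and Dppa3 had 2 in WT. With any coding TSS, Slc2a3 had 4 WT and 5 KO promoter peaks. With the listed peak in place of its central 200 bp, the composite was found in 0 WT and 0 KO peaks and the Esrrb letters in 0 WT peaks. Settings for merged enhancer peaks, fibroblast promoters and paired ranks were chosen after seeing the data. After merging, the window 5 kb upstream of Nanog held 2 WT regions and 1 KO region, and that 45 kb upstream 1 WT region. The share of pairs nearer the top in Uhrf1 KO reversed to 43.3% by number of runs (30.6% on chromosome 6), and by rank lay between 60.5%, with 100 kb on either side, and 76.7%, with ranks among paired peaks only, where chromosome 6 had 48.5%.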
